A study of Caenorhabditis elegans with 2 samples.

Results

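Autosomal divergent promoter peaks are listed peaks of MAB-5::eGFP signal that lie between a pair of protein-coding genes transcribed away from each other. They were chosen by signal and position. Starting from the list called on both replicates pooled, the 3000 nuclear peaks with the highest signal value were taken, and 2445 of these had their summit on an autosome. A summit was kept where the nearest protein-coding start on its left was on the minus strand, the nearest on its right was on the plus strand, and each lay within 1500 bp. This left 378 members, or 15.5% of the 2445 summits (exact 95% binomial interval 14.05 to 16.95, counting error only). The whole pooled list held 30000 peaks, 29978 of them nuclear. It is labelled as peaks and background together, the input to the authors' reproducibility threshold, so a listed peak need not be an enriched site. Of the 378 members, 105 were in the list that passed that threshold. Of the autosomal summits that were not members, 1131 lay within 1500 bp of a protein-coding start in another arrangement and are called other promoter summits. Another 936 lay away from starts. Among the 1131, 253 lay between divergent starts of which at least 1 was beyond the limit.

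The data are ChIP-seq (sequencing of immunoprecipitated chromatin) of whole Caenorhabditis elegans embryos of mixed stage and pooled sex, in 2 biological replicates that form 1 group. All animals were of strain OP27, whose genotype is unc-119(ed3) III with the transgene wgIs27, so the tagged protein was read from a transgene and no untagged group is analysed here. The antibody is given as mab-5 in one label and as directed against the eGFP fusion in another, and the cells that carried the fusion cannot be told apart in whole embryos. Fragments of 150 to 350 bp were selected, and read depth is unknown.

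MAB-5, a Hox protein of the Antennapedia class, gives posterior cells of the worm their identity and guides their migration. Hox proteins recognise short AT-rich sequences through the homeodomain, and they bind with PBC-type cofactors to a longer composite site. In C. elegans many housekeeping genes are arranged as divergent pairs that share one intergenic promoter region. Most mRNAs receive a trans-spliced leader, so an annotated start marks the beginning of the mature transcript and may lie downstream of where transcription begins.

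The sequence between the starts is shown for members that carry the main findings. All sequences are from the WBcel235 genome (the build called ce11 in the peak lists), plus strand, left to right, reaching 60 bp to each side of the summit unless a gene start lay closer or a marked site lay farther out. The first set holds the 4 strongest members of chromosomes II to V that had no TGATNNAT, the Hox-PBC composite site, within 100 bp of the summit. Capitals mark GCGC, a word chosen after the data had been seen, which 3 of the 4 carried.
hsp-110/rpn-3, chrIII:8447106-8447226: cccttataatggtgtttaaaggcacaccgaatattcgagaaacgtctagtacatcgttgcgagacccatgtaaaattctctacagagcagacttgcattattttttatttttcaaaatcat
rnf-121/C16C10.4, chrIII:4171080-4171200: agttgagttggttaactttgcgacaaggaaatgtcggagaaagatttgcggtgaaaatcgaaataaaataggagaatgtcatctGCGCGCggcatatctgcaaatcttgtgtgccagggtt
mlcd-1/idhg-1, chrIII:4568675-4568795: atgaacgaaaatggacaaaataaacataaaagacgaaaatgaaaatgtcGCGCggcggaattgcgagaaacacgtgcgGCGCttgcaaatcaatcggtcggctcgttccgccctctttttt
ears-2/uncp-18, chrIV:390469-390559: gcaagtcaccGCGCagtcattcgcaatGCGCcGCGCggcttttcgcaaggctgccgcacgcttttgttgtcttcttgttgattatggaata

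The next set holds 4 further strong members, shown because they carry GCGCAC or its reverse complement GTGCGC, the 6-letter word with the lowest p between summits and flanks. Capitals mark the word.
rpl-18A/Y17G9B.5, chrIV:4750008-4750137: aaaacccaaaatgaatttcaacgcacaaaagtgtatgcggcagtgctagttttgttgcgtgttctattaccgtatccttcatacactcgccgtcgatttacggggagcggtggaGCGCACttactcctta
Y22D7AL.10/hsp-60, chrIII:1619049-1619206: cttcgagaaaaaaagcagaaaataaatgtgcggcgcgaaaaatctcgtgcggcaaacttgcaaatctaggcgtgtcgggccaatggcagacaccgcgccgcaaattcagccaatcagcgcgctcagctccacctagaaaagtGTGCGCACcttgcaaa
rpl-12/lin-54, chrIV:13240652-13240746: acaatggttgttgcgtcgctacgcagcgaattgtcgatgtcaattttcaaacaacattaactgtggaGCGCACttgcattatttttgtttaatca
K01G5.10/tasp-1, chrIII:10759181-10759301: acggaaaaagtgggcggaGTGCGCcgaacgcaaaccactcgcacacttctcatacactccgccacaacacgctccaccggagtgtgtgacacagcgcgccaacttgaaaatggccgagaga

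The last set holds 3 of the 4 strongest members of chromosomes II to V that had a Hox-PBC site within 100 bp of the summit. Capitals mark TGATNNAT on either strand.
algn-13/R10D12.13, chrV:13962114-13962266: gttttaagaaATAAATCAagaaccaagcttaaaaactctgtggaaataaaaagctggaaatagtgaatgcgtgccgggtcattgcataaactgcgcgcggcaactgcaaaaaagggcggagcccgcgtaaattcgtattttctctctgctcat
lec-5/nep-25, chrII:5841229-5841349: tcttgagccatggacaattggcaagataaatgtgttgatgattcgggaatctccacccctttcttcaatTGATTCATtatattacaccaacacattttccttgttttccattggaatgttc
nmad-1/hach-1, chrIII:5555080-5555226: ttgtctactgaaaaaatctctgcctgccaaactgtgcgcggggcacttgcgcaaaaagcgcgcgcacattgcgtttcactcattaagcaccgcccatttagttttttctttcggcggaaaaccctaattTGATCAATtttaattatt
The site lay 82 bp from the summit in algn-13/R10D12.13, 69 bp in nmad-1/hach-1 and 9 bp in lec-5/nep-25.

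The strongest member lay between rps-20, which encodes a protein of the small ribosomal subunit, and ekl-4. Its signal value, the authors' own measure of enrichment with no stated scale, was 106 in the pooled list, 30.9 in replicate 1 and 74.0 in replicate 2. The peak spans positions 14469264 to 14469433 of chromosome I (ce11), in a stretch of 397 bp between the starts. The second, between hsp-110, an Hsp110-type chaperone gene, and rpn-3, a proteasome subunit gene, had 94.6, 22.8 and 72.0. Both were far higher in replicate 2 than in replicate 1. The member between rnf-121, a RING finger gene, and C16C10.4 had values of 91.8, 32.5 and 65.8. That between mlcd-1 and idhg-1, which encodes a subunit of mitochondrial isocitrate dehydrogenase, had 89.2, 26.04 and 62.9. The summit between ears-2, a mitochondrial glutamyl-tRNA synthetase gene, and uncp-18 sat in a gap of only 92 bp and had 80.3, 38.0 and 46.5. It was the highest member of replicate 1.

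The next values went on down the same kinds of genes. The pair rpl-18A/Y17G9B.5 had pooled, replicate 1 and replicate 2 signal values of 77.2, 19.7 and 58.1. The replication-type histone genes his-67/his-68 had 77.2, 26.4 and 50.5, where reads from near-identical histone copies may be shared. The mitochondrial chaperonin gene hsp-60, paired with Y22D7AL.10, had 76.1, 23.7 and 51.2. In each of these the replicate 2 value was the higher. Further ribosomal protein pairs were rpl-15/K11H12.8 at a pooled value of 73.2 and rpl-12/lin-54 at 68.0, where lin-54 encodes a DNA-binding subunit of the DREAM complex. The pair cwn-1/K10B4.1, with a Wnt ligand gene, had 67.8, but only 10.3 in replicate 1 against 55.8 in replicate 2. The other 9 of the 20 strongest were cup-14/ndub-8, tig-2/F39G3.3, K01G5.10/tasp-1, nep-18/usp-39, drr-2/set-16, eef-1A.1/rfc-4, rsp-3/spin-4, rpt-2/aps-1 and mbf-1/nse-4, with pooled values from 66.7 down to 54.4. They include genes for a TGF-beta-type ligand (tig-2), a translation elongation factor (eef-1A.1), an SR splicing factor (rsp-3) and a proteasome ATPase (rpt-2). All 20 were among the 3000 strongest nuclear peaks of both replicate lists, 19 had the higher value in replicate 2, and 0 had a Hox-PBC site within 100 bp. That site was within 100 bp in 13.2% of all 378 members and in 14.3% of the 126 strongest. Whether the 20 strongest lacked it more often than other members was not tested.

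Over the 378 members the pooled signal value ran from 18.6 to 106 with a median of 26.9, beside medians of 23.3 for other promoter summits and 21.9 for summits away from starts. The latter groups reached higher, with maxima of 236 and 225. These values selected the members and are given as a description. The last member by rank was ned-8/hpo-35 (rank 2999, 18.6), and the next summit between divergent starts was nasp-2/C50B6.3 (rank 3064, 18.5). At the distance limit, tif-1A/pxd-1 was a member with its farther start at 1500 bp and a value of 35.6. The summit between ndg-4 and mstr-2 was not, with its farther start at 1522 bp and a value of 24.3. Of the 405 nuclear autosomal peaks in the list the authors thresholded by reproducibility, 105 were members (25.9%). These were the 105 members of highest pooled value, down to rbc-2/ndua-8 at 34.3, and the next member, at 34.0, was not in it. Among the members the thresholded list is therefore no selection apart from signal value. Nor does it mean a peak in both replicate lists, since vps-51/lin-35 and ift-43/mdt-26 were in it with no peak in replicate 1.

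The share of summits between divergent starts was greatest among the strongest peaks and fell along the ranks. In the pooled list 25.4% of autosomal summits of ranks 1 to 500 met the position rule, 23.0% of ranks 501 to 1000, 14.5% of ranks 1001 to 2000 and 7.65% of ranks 2001 to 3000. From rank 12001 on it was 2.75%, close to the 2.32% of autosomal bases that meet the rule. Each replicate's own list showed the same order, with 21.6% in replicate 1 and 23.0% in replicate 2 at ranks 1 to 500, and 3.04% and 2.87% from rank 12001 on. Over the same pooled classes the share of other promoter summits stayed between 43.9% and 50.8%. Ranks are the authors' own, and these shares are a description with no test.

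**Figure D1:**
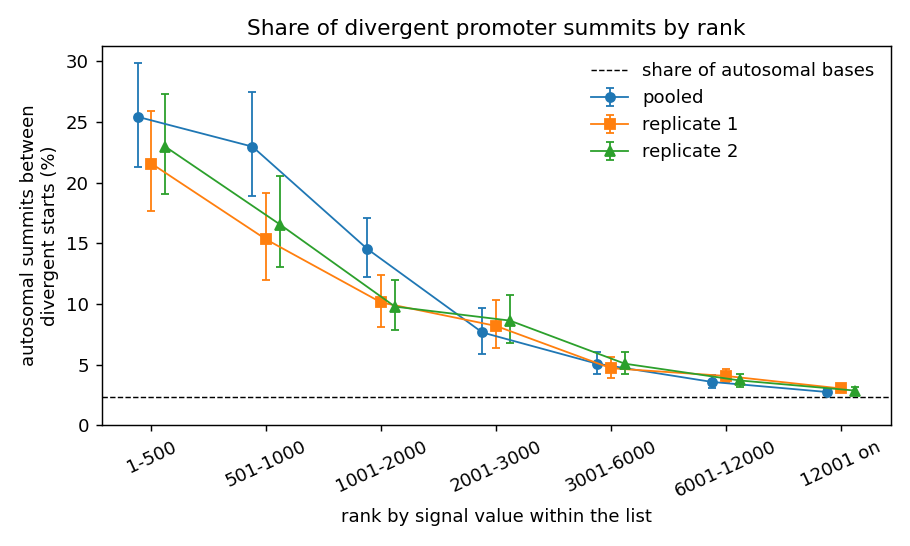
Percentage of autosomal summits that lie between divergent protein-coding starts (vertical axis) in classes of rank by signal value (horizontal axis), for the pooled list and each replicate list; bars are exact 95% binomial intervals and the dashed line is the percentage of autosomal bases that meet the position rule. All lists start above 20% and approach the dashed line at 2.32%.

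The replicates gave the same members unequal weight. Replicate 1 had a peak over 326 member summits, with signal values from 3.36 to 38.0 and a median of 10.5. Replicate 2 had a peak over 359, with values from 5.68 to 74.0 and a median of 18.1. In their own lists 210 members (55.6%) were among the 3000 strongest nuclear peaks of replicate 1 and 268 (70.9%) among those of replicate 2. Both placed 148 members there, 62 were placed there by replicate 1 alone, 120 by replicate 2 alone and 48 by neither. The pooled median was 36.7 for the 148 and 20.6 for the 48, so the members placed there by both were the stronger ones. The corresponding shares were 43.4% and 59.9% for other promoter summits and 35.1% and 56.4% for summits away from starts. Because the pooled list holds the reads of both replicates, none of these is an independent check.

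Both lists had a peak over 308 members. Replicate 2 was higher in 259 of them and replicate 1 in 49, and the ratio of replicate 2 to replicate 1 had a median of 1.80 and a range from 0.312 to 7.63. Across these 308 members the Spearman correlation of the values was 0.235 and the Pearson correlation 0.429, as a description over sites that share their libraries. Whether the lists share a scale is not stated, so the ratio is given only as the files show it. How close the replicate summits lay was partly set by the matching, since each replicate peak had to cover the pooled summit. Their positions are therefore no independent check. The 2 replicate summits were a median of 40 bp apart, both lay between the starts in 285 of 308 members, and the nearer gene was the same in 266 (86.4%). Of the 3 ribosomal protein pairs with the higher value in replicate 1, rpl-7A/set-21 had 22.3 in replicate 1 and 6.97 in replicate 2, bop-1/rpl-37A had 17.4 and 14.6, and rps-5/clc-9 had 9.33 and 9.18. The pair vps-51/lin-35, with the Retinoblastoma-type gene lin-35, had 35.2 in replicate 2 and no peak in replicate 1. The member uvs-1/xpo-1, with an exportin gene, had no peak in either replicate list.

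**Figure D2:**
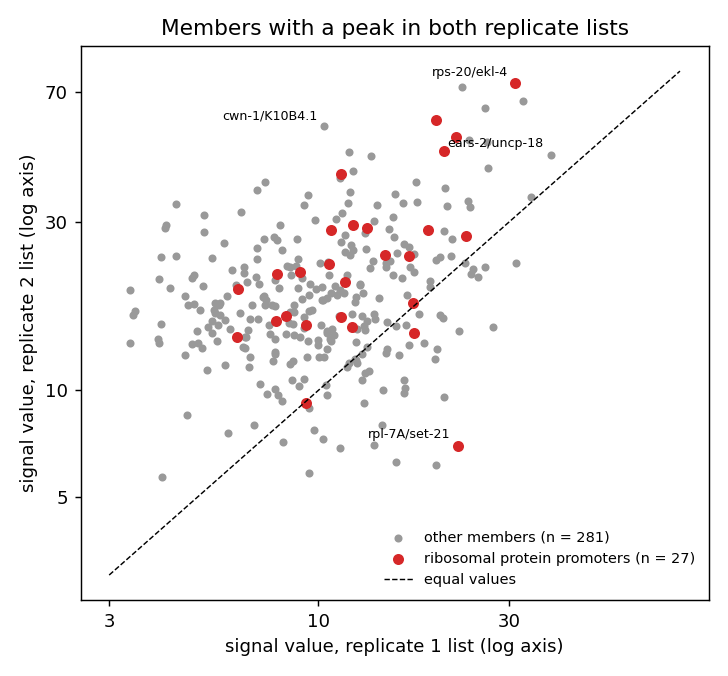
Signal value in the replicate 1 list (horizontal, log axis) against that in the replicate 2 list (vertical, log axis) for the 308 members with a peak in both, with 27 ribosomal protein promoters in red and equal values on the dashed line. Most points lie above the line, and rpl-7A/set-21 is the lowest red point.

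Members sat close to genes and in short gaps. The distance between the starts had a median of 582.5 bp (82 to 2518), the summit was a median of 159.5 bp from the nearer start and 403 bp from the farther one. In 112 members (29.6%) the nearer start was within 100 bp and in 129 (34.1%) between 100 and 200 bp. The summit lay in the middle part of the gap, when it is cut into 3 equal parts, in 151 (39.9%). Other promoter summits were a median of 432 bp from their nearest start, and 33.8% were downstream of it. In 6 members the summit lay inside the body of another annotated gene. Since position chose the members, these distances are a description.

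Members occupied a minority of the divergent promoters of the genome. The autosomes hold 2782 divergent pairs with starts up to 3000 bp apart, and 370 of them (13.3%) held a member, 8 of these with 2 summits. A peak of the thresholded list lay in 104 pairs (3.74%), and any peak of the pooled list in 938 (33.7%). The share with a member was 5.79% for gaps of at most 200 bp, 22.2% for 200 to 400 bp and 20.8% for 400 to 600 bp. It was 15.2% for 600 to 1000 bp, 13.1% for 1000 to 1500 bp and 4.30% for 1500 to 3000 bp. In gaps over 1500 bp only part of the stretch can meet the position rule, so the last fall was partly set in advance. Short gaps hold less sequence. Per Mb between the starts there were 434 members in gaps of at most 200 bp, 747 at 200 to 400 bp and 415 at 400 to 600 bp. Chromosome III had the highest share at 20.1% and chromosome V the lowest at 8.78%, with 16.3% on I, 10.2% on II and 14.8% on IV. The central 50% of the chromosomes had 13.9% and the outer 50% had 12.5%.

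Cytosolic ribosomal protein genes, which build the translating ribosome, had the highest share of the 24 gene lists. Of their 45 divergent pairs 27 held a member (60%, exact 95% interval 44.3 to 74.3), against 13.3% of all pairs, and 14 held a thresholded peak against 3.74%. Their pooled signal values ran from 20.6 to 106 with a median of 36.7. In replicate 1 they ran from 6.24 to 30.9 with a median of 12.2, and in replicate 2 from 6.97 to 74.0 with a median of 21.6. Replicate 2 was higher in 24 of 27, all 27 had a peak in both lists, and 20 were among the 3000 strongest of both. Examples below the first 4 were ifet-1/rps-3A at 51.8, rps-19/hsr-9 at 51.8, rps-10/rpl-24, the only pair with 2 listed genes, at 49.0, and ska-3/rps-12 at 47.6. The lowest was bop-1/rpl-37A at 20.6.

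The summit was usually nearer to the partner than to the ribosomal protein gene. It was nearer to the ribosomal protein start in 7 of the 26 pairs with 1 listed gene, at a median of 290 bp from that start and 186 bp from the partner's. At rpl-12/lin-54 it was 35 bp from rpl-12, and at tmem-107/rps-26 it was 414 bp from rps-26 and 43 bp from tmem-107. Of the 18 ribosomal protein pairs with no member, 10 had a weaker peak of the pooled list, such as rab-11.1/rpl-7 and rps-14/rpl-36, and the others, such as pab-1/rpl-30 and rps-13/nfx-1, had none.

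Several other lists also had shares above the background of 13.3%. Chaperonin and heat shock genes, which fold proteins, had a member in 14 of 27 pairs (51.9%), led by hsp-110/rpn-3, Y22D7AL.10/hsp-60 and mig-5/cct-1. Mitochondrial respiration and import genes had 10 of 23 (43.5%), led by atp-3/F27C1.2 at 38.7, prel-3/timm-23 at 36.7 and C34E10.10/atp-2 at 30.03. Translation factor genes had 9 of 22 (40.9%), led by eef-1A.1/rfc-4 at 57.2, clsp-1/eef-2 at 32.5 and eif-2Bbeta/Y47H9C.8 at 29.9. These lists hold genes for making and folding proteins and for mitochondrial energy supply. Splicing genes had 14 of 35 (40%), led by rsp-3/spin-4 at 55.7, hel-1/C26D10.4 at 51.98 and luc-7L3/sftb-6 at 35.9. Mitochondrial ribosomal protein genes had 11 of 29 (37.9%), led by rpl-28/mrpl-49 at 38.8, phka-1/mrpl-18 at 36.3 and mrps-34/cisd-3.1 at 36.0. Proteasome genes, which degrade proteins, had 8 of 22 (36.4%), led by hsp-110/rpn-3, rpt-2/aps-1 and pbs-1/K08D12.3 at 31.0. A pair can count in more than 1 list, as hsp-110/rpn-3 does.

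RNA polymerase and general transcription genes had 6 of 17 pairs (35.3%), led by the Mediator pairs apb-1/mdt-19 at 50.4 and ift-43/mdt-26 at 42.1 and by pqn-59/taf-4 at 28.9. The ubiquitin conjugation list, made by gene symbol and taking in usp-39, had 6 of 19 (31.6%), led by nep-18/usp-39, rbm-3.2/ubc-12 and ubq-2/frg-1. Vesicle traffic and V-ATPase genes had 15 of 55 (27.3%), led by vps-51/lin-35 at 43.3, nmat-2/rab-5 at 39.2 and C17H12.2/vha-8 at 38.9. These shares lie between that of the splicing genes and the background. Aminoacyl-tRNA synthetase genes had 4 of 15 (26.7%), led by ears-2/uncp-18, mars-1/F58B3.6 and W03B1.9/sars-2. The tubulin and actin list, which takes in cap-1 and cap-2 beside the tubulin and actin genes, also had 4 of 15. It was led by cap-1/D2024.4, tba-1/cox-5B and gmps-1/cap-2. Cell cycle and DNA replication genes had 8 of 39 (20.5%), led by eef-1A.1/rfc-4, the E2F pair efl-1/fbxa-90 at 44.2 and vps-51/lin-35. Nuclear pore and transport genes had 3 of 26 (11.5%), below the background: npp-8/ced-2 at 41.2, unc-40/npp-7 at 31.7 and uvs-1/xpo-1 at 19.4.

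A further 7 lists had shares below the background. Chemoreceptor genes had a member in 10 of 293 pairs (3.41%, interval 1.65 to 6.19), led by icl-1/srh-2 at 45.6, clic-1/srr-10 at 40.8 and Y69E1A.5/sri-19 at 38.3. In 1 of the 9 of these members with a single listed gene was the chemoreceptor gene the nearer one. Nuclear hormone receptor genes had 2 of 50 (4%), nhr-142/F44E7.9 at 20.1 and nhr-213/str-60 at 19.4. C-type lectin genes had 3 of 73 (4.11%), collagen genes 3 of 49 (6.12%), F-box genes 6 of 92 (6.52%) and neuropeptide genes 1 of 14 (7.14%). The strongest in these were C49A1.10/clec-115 at 30.7, col-71/Y49F6B.2 at 50.8, fbxc-44/C16A11.2 at 45.9 and nlp-4/exos-3 at 30.6. Histone genes had 3 of 34 (8.82%), his-67/his-68, his-31/his-32 at 29.7 and his-72/rpt-6 at 19.1. In all, 155 members had a gene in at least 1 of the 24 lists and 223 had none.

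The lists closest to the known biology of MAB-5 were short, with 71 homeobox and Hox genes and 31 Wnt pathway genes. All 19973 nuclear protein-coding genes gave 2782 autosomal divergent pairs, of which 370 (13.3%) held a member. Homeobox genes named ceh and Hox genes had a member in 1 of 10 such pairs (10%, interval 0.253 to 44.5), also below the background. This member, ceh-19/csr-1, had a pooled value of 21.9, 13.8 in replicate 1 and 7.0 in replicate 2. Its summit was nearer to csr-1, an Argonaute gene. Wnt pathway genes, which act with mab-5 in posterior cell migration, had 4 pairs and 2 members (50%, interval 6.76 to 93.2). They were cwn-1/K10B4.1 and mig-5/cct-1, where mig-5 encodes a Dishevelled-type protein, with 54.0 in the pooled list, 17.6 in replicate 1 and 34.2 in replicate 2. In both, the Wnt pathway gene was the nearer one. Cell death and engulfment genes had 3 pairs and 1 member, npp-8/ced-2 (33.3%, interval 0.840 to 90.6). Its summit was 214 bp from npp-8 and 1280 bp from ced-2.

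The lists differed in the length of their gaps, which moves with the share that hold a member. The median gap was 559 bp for ribosomal protein pairs and 528 bp for chaperonin and heat shock pairs. It was 1122 bp for chemoreceptor, 1361 bp for collagen and 1377 bp for nuclear hormone receptor pairs. Among pairs with gaps of 200 to 1000 bp, 269 of 1423 (18.9%) held a member. Within these gaps the share was 60.5% for ribosomal protein pairs (26 of 43), 58.3% for chaperonin and heat shock pairs (14 of 24) and 5.22% for chemoreceptor pairs (6 of 115). Histone pairs had 2 of 31 (6.45%) at the same gaps. Expression was not measured in these data, and its part in the list shares was not tested.

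**Figure D3:**
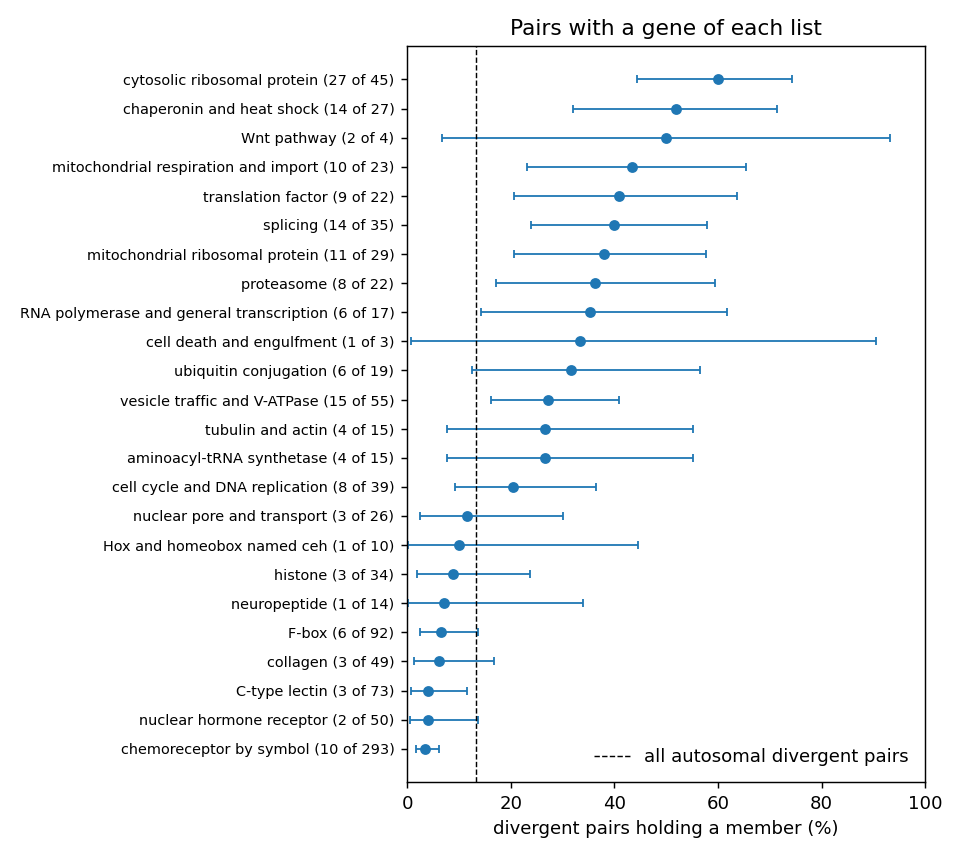
Percentage of autosomal divergent pairs that hold a member (horizontal axis) for pairs with a gene of each list (rows, with counts); bars are exact 95% binomial intervals and the dashed line is the 13.3% of all pairs. Ribosomal protein pairs stand at 60% and chemoreceptor pairs at 3.41%.

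The letters of the genome did not enter the choice of members, so they could be tested. Words were searched on both strands in windows of 201 bp, 100 bp to each side of the summit. Each summit window was set beside a flank of equal length centred 500 bp away towards the farther start, with an exact McNemar test whose p-values were adjusted (Benjamini-Hochberg) over 10 motifs. The centre of the flank lay past the farther start, in the gene, in 223 members (59.0%). Members were also compared with the 1131 other promoter summits by the two-sided Fisher's exact test. Both tests count summits as independent, while all come from the same 2 libraries.

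The Hox-PBC site TGATNNAT was not more frequent at member summits. It was present in 50 summit windows (13.2%, interval 9.98 to 17.1) and in 50 flanks, with 42 members discordant in each direction and an exact McNemar adjusted p of 1. Windows of the same length midway between the starts of all 2782 divergent pairs held it in 15.03%, and those of the 1844 pairs with no peak of the pooled list in 15.5%. Other promoter summits held it in 17.8% (Fisher's exact test, adjusted p = 0.0917) and summits away from starts in 22.0%. In replicate 1's own list the difference from other promoter summits was -5.97 percentage points (Fisher's exact test, adjusted p = 0.0498). In that of replicate 2 it was -2.67 points (Fisher's exact test, adjusted p = 0.437). The homeodomain core TAATTA was in 8.47% of summits against 9.79% of flanks (adjusted p = 0.782 by the exact test), beside 12.1% of all pairs. Other promoter summits held it in 11.2% (Fisher's exact test, adjusted p = 0.183), and in replicate 1's own list that difference was -4.93 points with an adjusted p of 0.0498. The Meis-type word TGACAG was in 4.50% and 5.29% (exact test, adjusted p = 0.818), beside 7.604% of other promoter summits.

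GAGAGA, a repeat bound by GAGA-type factors in flies, was higher at summits than in flanks. It was in 26.5% of summit windows and 10.6% of flanks, an excess of 15.9 percentage points (exact McNemar adjusted p = 1.53e-07), and in 12.3% of all pairs. Other promoter summits held it in 27.7% (Fisher's exact test, adjusted p = 0.689) and summits away from starts in 32.1%, and the difference from other promoter summits turned from -1.22 percentage points to 1.13 and 1.86 in the lists of replicates 1 and 2 and to 2.38 with the 6000 strongest peaks. GGGCGG, the GC box, was also higher at summits, in 11.9% against 3.44% of flanks (exact test, adjusted p = 7.01e-05) and 4.996% of all pairs. It was in 7.07% of other promoter summits (Fisher's exact test, adjusted p = 0.0484), a difference of 4.83 percentage points. That call ended with the 1500 strongest peaks (5.67 points, adjusted p = 0.055 by Fisher's exact test), in the thresholded list (10.7 points, 0.108), with a distance limit of 500 bp (5.64 points, 0.0557) and with a window of 50 bp (3.07 points, 0.139). TGATAA, the GATA factor word, was in 11.1% of summits and 17.2% of flanks, and CCAAT in 28.6% and 36.8%, each lower with an adjusted p of 0.0463. Either call was lost in each replicate's own list. The E-box CACGTG, GGCGGGAA (E2F) and GAANNTTC (paired heat shock units) did not pass the exact test against flanks (adjusted p = 0.53, 0.782 and 0.782), with summit shares of 3.17%, 0.265% and 15.1% and all-pair shares of 3.63%, 0.683% and 13.8%. With a distance limit of 500 bp CACGTG passed, at -4.04 percentage points (adjusted p = 0.0449 by the exact test). GAANNTTC was in 10.5% of other promoter summits (Fisher's exact test, unadjusted p = 0.0205, adjusted p = 0.0794). That difference passed in the thresholded list (12.6 points, adjusted p = 0.0242 by Fisher's exact test) and with a limit of 1000 bp (4.98 points, 0.0487).

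A search over all 2080 words of 6 letters, added after the motif shares had been seen, found CG-rich words at member summits. Of these words 158 (7.6%) were higher at summits than in flanks and 99 were lower, by the exact McNemar test adjusted over all 2080. The words that rose had a median of 4 G or C letters and those that fell 3. By p-value GCGCAC led, in 80 members (21.2%, interval 17.2 to 25.6) against 2.38% of flanks (exact test, adjusted p = 5.82e-13). It was followed by GCGCGC with 16.4% against 1.59%, GAGCGC with 19.6% against 3.17% and ACGCGC with 20.1% against 3.44%. These words overlap one another and share GCGC. The word lower at summits with the lowest p was CTGAAA, or TTTCAG on the other strand, the usual end of a worm intron, in 27.2% of summits against 46.3% of flanks (adjusted p = 1.96e-06 by the exact test).

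GCGCAC was also more frequent in members than in other classes of window. Other promoter summits held it in 9.02% (Fisher's exact test, adjusted p = 5.85e-06 over 2080 words), and 96 words (4.62%) were higher in members in that comparison. Summits away from starts held it in 3.85% and divergent pairs with no peak in 4.93%. The difference from other promoter summits was 12.1 percentage points. It was 15.3 in replicate 1's own list (Fisher's exact test, adjusted p = 1.9e-09) and 10.7 in that of replicate 2 (adjusted p = 0.000171). It was 8.65 with the 1500 strongest peaks (Fisher's exact test, adjusted p = 0.0941), 9.90 in the thresholded list (0.672) and 7.09 with a distance limit of 500 bp (0.294), where the call ended. Other promoter summits lay farther from starts (a median of 432 bp against 159.5 bp), and the part of distance in the difference was not tested beyond these limits.

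The core GCGC was in 246 members (65.1%), against 23.5% of flanks, 37.1% of other promoter summits, 24.04% of summits away from starts and 23.5% of pairs with no peak. Base composition moves with such words. Windows with a GC content below 35% held GCGC in 53.8% of members and 23.9% of other promoter summits, windows of 35 to 42% in 72.1% and 43.5%, and windows from 42% up in 70% and 51.9%. Members had the higher share within each class of GC content, as a description. GAGAGA behaved otherwise, at 15.9%, 25.7% and 40% of members and 12.7%, 32.1% and 48.5% of other promoter summits. GCGC and GAGAGA occurred together in 60 members (15.9%), GCGC alone in 186 (49.2%), GAGAGA alone in 40 (10.6%) and neither in 92 (24.3%).

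**Figure D4:**
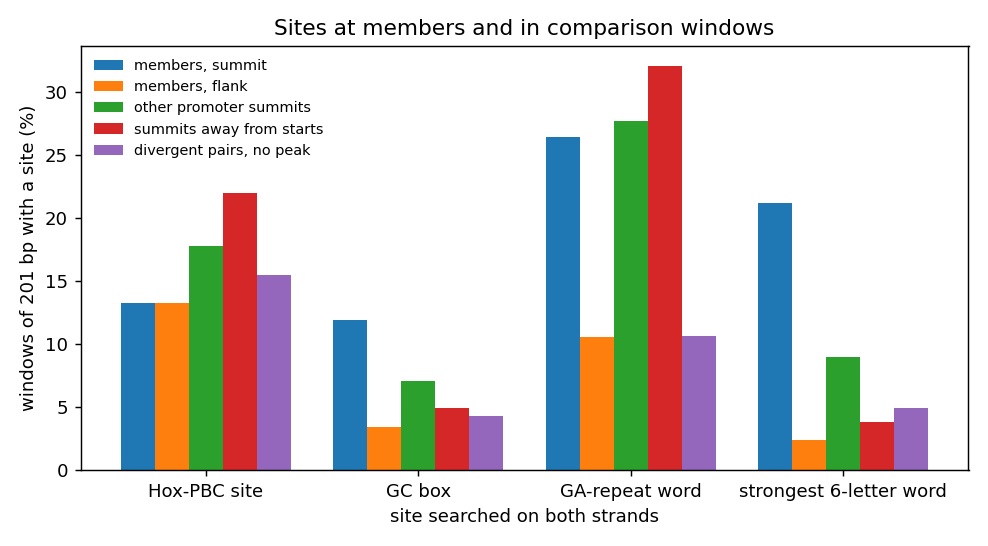
Percentage of 201 bp windows with a site (vertical axis) for the Hox-PBC site TGATNNAT, the GC box GGGCGG, the GA-repeat word GAGAGA and GCGCAC, labelled the strongest 6-letter word for its p-value, in 5 classes of window (bars). The Hox-PBC bars of member summits and flanks are equal at 13.2%, and GCGCAC is highest at member summits, at 21.2%.

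The shares of the words by signal value, which selected the members, are given as a description. Among the 126 strongest members GCGCAC was in 28.6%, GCGC in 73.02% and TGATNNAT in 14.3%. Among the middle 126 the shares were 17.5%, 68.3% and 12.7%, and among the 126 weakest 17.5%, 53.97% and 12.7%. Of the 27 ribosomal protein members 4 had GCGCAC (14.8%), 18 GCGC (66.7%) and 1, rps-5/clc-9, TGATNNAT. Of the 14 chaperonin and heat shock members 5 had GCGCAC, and of the 11 mitochondrial ribosomal protein members 4. Other lists ranged from 0 of 6 ubiquitin conjugation members to 3 of 6 RNA polymerase and general transcription members. Over all 378 members GCGCAC was in 21.2%, GCGC in 65.1% and TGATNNAT in 13.2%. The list counts are small and were not tested.

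The CG-rich words were concentrated at the summit itself. Within 50 bp of member summits there were 1.64 GCGCAC sites per kb of sequence, from 50 to 100 bp 0.767 and from 100 to 150 bp 0.132. Around other promoter summits GCGCAC was also concentrated, at lower density, with 0.690 per kb within 50 bp and 0.177 from 100 to 150 bp. GAGAGA went from 2.30 per kb within 50 bp of member summits to 0.820 at 100 to 150 bp. It was denser around other promoter summits, with 3.79 and 1.91 at the same distances. At members TGATNNAT stayed between 0.608 and 1.01 per kb in every 50 bp step out to 500 bp. Mean GC content was 41.7% and 41.5% in the bins next to the summit, 30.4% from 100 to 150 bp towards the farther start and 32.5% at the same distance towards the nearer start. Over the whole 201 bp window the median GC content was 37.8% at summits and 36.8% in flanks, beside 36.3% for other promoter summits, 33.3% for pairs with no peak and 35.5% for the autosomes. The summit window was the more GC-rich in 193 of 378 members.

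**Figure D5:**
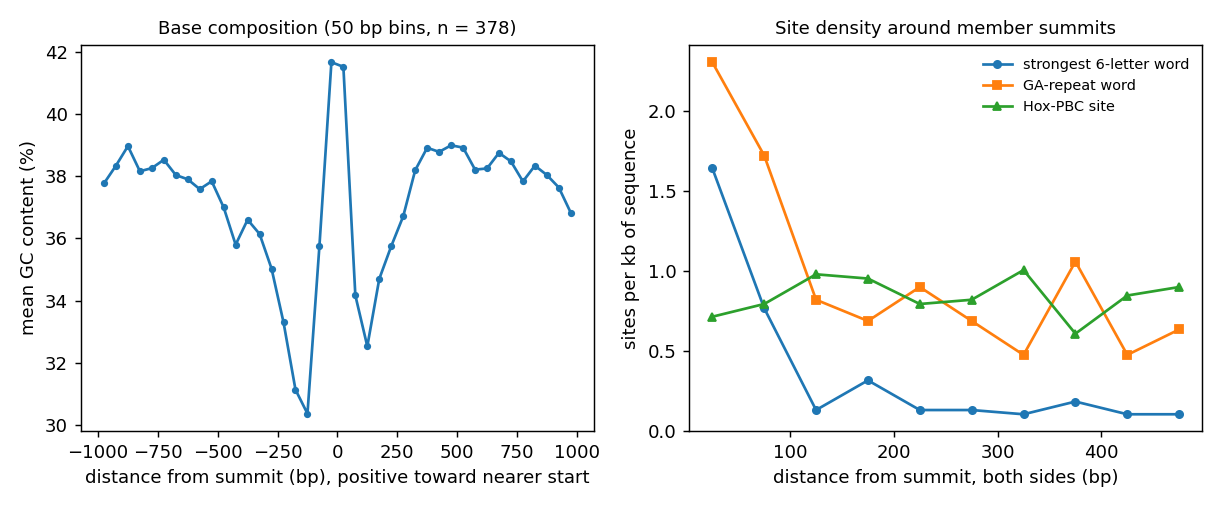
Left, mean GC content in 50 bp bins against distance from the summit over 378 members, positive towards the nearer start; right, sites per kb in 50 bp steps from the summit, both sides together. GC content is highest, at 41.7%, next to the summit with dips on both sides, and GCGCAC and GAGAGA fall with distance while the Hox-PBC site does not.

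Starts of non-coding genes, which the position rule ignored, gave no difference between members and other promoter summits that passed the test. Within 500 bp of the summit, 4 members had a tRNA gene start (1.06%), 8 a snoRNA (2.12%), 2 a snRNA (0.529%), 3 a miRNA (0.794%) and 9 a piRNA (2.38%). Other promoter summits had 1.503%, 3.18%, 0.796%, 0.265% and 3.63%. Genes of other non-coding RNA were near 48 members (12.7%) and 11.1% of other promoter summits. By the two-sided Fisher's exact test 0 of 6 types differed after adjustment, 0 had an unadjusted p below 0.05, and the lowest unadjusted p was 0.170, for miRNA. In replicate 1's own list and among the 6000 strongest peaks 1 type passed, other non-coding RNA, with more near members. At eef-1A.1/rfc-4 the start of mir-5549 was 27 bp from the summit, and at rocf-1/pqn-71 a tRNA gene started 17 bp from it. At tim-1/Y75B8A.23 the spliced leader gene sls-2.8 started 7 bp from the summit.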

How the data were processed

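MAB-5::eGFP ChIP-seq was available as narrowPeak lists for 2 replicates of 1 group. Peaks were called by the authors for each replicate and for both pooled, against a control alignment, and a thresholded list of 502 peaks was derived by irreproducible discovery rate, per the deposited file descriptions. The sources used here do not give the peak caller, the aligner or their versions, and the control library is not analysed here. Signal values are the authors' own as deposited, with no stated scale, and were used only to rank and describe peaks. Read depth is unknown, so intervals (exact 95% binomial) cover counting error only.

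The ce11 lists were used, since gene starts were given for WBcel235 alone, the assembly of the last X peak position. The ce10 lists and the 22 mitochondrial peaks of the pooled list were left out. Starts came from Ensembl release 115 and symbols from RefSeq (99.9% of 19973 nuclear protein-coding genes). The members, lists, motifs and named genes were chosen with earlier results of these data known. Named were the pairs of the 20 strongest members, the 3 strongest of each of 24 lists and the peaks at each limit, and a few others were named after their values were seen. The sequence of 1 member that the rule selects is not reported here. Replicate values are those of the peak covering the member summit. The search of 6-letter words was added after the data had been seen. The tests were checked on simulated data with random and planted sites. Values counted as past the threshold had an adjusted p below 0.05. Alternatives were each replicate's own list, other rank, distance, window and flank limits and the thresholded list. Python 3.11.15, numpy 2.4.6, scipy 1.17.1, pandas 2.3.3 and matplotlib 3.10.9 were used.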

Additional observations from a re-analysis of the deposited data

How the results depend on the processing

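No paired analysis was possible because there is 1 group. Read depth is unknown, whether the 2 replicate lists share a signal scale is not stated, and the members were chosen from their pooled reads. The 6-letter words and all their alternatives were added after the data had been seen. Causes of the changes below, the number of summits among them, were not tested.

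With the 1500 strongest peaks 21.6% of autosomal summits were between divergent starts, with the 6000 strongest 10.3%, in the thresholded list 25.9%, and with distance limits of 1000 and 500 bp 13.2% and 9.12%. The thresholded list gave 105 members in 104 pairs, which were the members of highest pooled value, and the 500 bp limit 223 members in 223 pairs. Motifs past the threshold against flanks numbered 4, and 2 (GGGCGG and GAGAGA) with the 1500 or 6000 strongest peaks, in the thresholded list and with windows of 50 bp, 3 with the flank 300 bp away (CCAAT lost) and 5 with a 500 bp limit (CACGTG gained). Against other promoter summits they numbered 1, and by the same Fisher's exact test 0 with the 1500 strongest peaks, a 500 bp limit or windows of 50 bp, and 5 with a 1000 bp limit. At an unadjusted p below 0.05 there were 3, 6 and 2 motifs in the settings with 0. Words of 6 letters higher at summits than in flanks numbered 158, and 32 in the thresholded list. Those higher than in other promoter summits numbered 96, then 25 with the 1500 strongest peaks, 7 in the thresholded list, 178 with the 6000 strongest, 42 and 8 with limits of 1000 and 500 bp, and 60 with windows of 50 bp. Starts of non-coding genes were 1 type past the threshold with the 6000 strongest peaks, other non-coding RNA.

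With each replicate's own list the share between divergent starts was 12.3% to 12.8%, motifs past the threshold against flanks numbered 2 to 2, against other promoter summits 1 to 3, non-coding types 0 to 1 (other non-coding RNA in replicate 1), and words against flanks 89 to 129. The share of ribosomal protein pairs with a member was 57.8% to 60%, and 31.1% in the thresholded list, beside 3.74% of all pairs.

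Differences that changed sign were small, and none passed the threshold. Against other promoter summits, in percentage points, GAGAGA was 1.13 to 1.86 with 1 replicate and 2.38 with the 6000 strongest peaks, TGATAA 0.952 in the thresholded list, CACGTG 0.176 with the 6000 strongest, and TAATTA 0.0237 at 500 bp. Against flanks, GAANNTTC was 2.86 in the thresholded list, 0.897 at 500 bp and 1.06 with the flank on the nearer side. TAATTA was 0.994 with the 6000 strongest and 2.69 at 500 bp, and with the flank 300 bp away TGACAG was 0.794 and CACGTG 0.265. All other alternatives kept the sign of each motif difference, with these exceptions against flanks. TGACAG was 0 with the 1500 strongest peaks and in the thresholded list, and TGATNNAT, at 0, moved between -3.14 and 1.51.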
